A study of Mus musculus with 10 samples.

Results

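The methionine cycle and the enzymes that use its methyl groups were followed in livers of *db/db* mice through 10 genes. The genes were chosen by name, not by level: *Mat1a*, *Mat2a*, *Gnmt*, *Ahcy*, *Bhmt*, *Bhmt2*, *Cbs*, *Cth*, *Nnmt* and *Pemt*. All 10 were among the 15126 genes measured. Poly-A RNA was sequenced, and the 5 AAV8-Control livers of the 10 libraries in the series are described. These mice were *db/db*, a model of obesity and diabetes that lacks a working leptin receptor, and were 10 weeks of age. They had received adeno-associated virus 8 (AAV8) encoding eGFP by tail vein 5 weeks before the livers were studied, and no uninfected or lean liver was compared. The promoter in the virus is not given in the sources used here. The labels name liver as the tissue but also speak of cultured primary hepatocytes and of adenovirus, and the study's description of liver tissue was followed. The labels do not state that each library came from a separate mouse, so the SD measures the spread between these libraries.

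The methionine cycle joins methionine to adenosine from ATP to form S-adenosylmethionine, the methyl donor of most methylation reactions. After the methyl group is passed on, S-adenosylhomocysteine remains and is split into adenosine and homocysteine. Homocysteine is either methylated back to methionine, with betaine or folate as the methyl source, or sent through transsulfuration to cysteine. The liver is the main organ of methionine breakdown, and its hepatocytes carry several of these enzymes at levels that few other tissues reach.

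Levels were given as CPM, a gene's reads scaled to the total of reads on genes in its library. The 5 libraries held 19499795 to 35498596 reads on genes, with a median of 20769191, and AAV8-Control replicate 3 was the deepest. The 10 hepatocyte markers summed to 101600 to 135952 CPM, the 10 Kupffer cell and macrophage markers to 171 to 349 CPM, the 10 sinusoidal endothelial markers to 194 to 399 CPM and the 10 stellate cell and fibroblast markers to 282 to 383 CPM. The 7 cholangiocyte markers summed to 33.6 to 54.1 CPM, the 8 lymphocyte markers to 4.11 to 8.76 CPM and the 5 neutrophil markers to 1.21 to 2.76 CPM. Of these, *Cftr*, *Cldn4*, *Cd3d*, *Cd79a*, *Ms4a1*, *Retnlg* and *Mpo* were near 0. No 2 libraries matched within counting noise.

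Transcripts of the methionine cycle were abundant in these livers. The 10 genes together took up 1.11% ± 0.11 (SD, n = 5) of the reads on genes. *Mat1a* made up 46.3% ± 1.95 of their sum and *Gnmt* 26.4% ± 2.52. Per kilobase of exon, *Gnmt* ranked 19 and *Mat1a* 31 of 15123 genes with a known length, and the lowest of the 10, *Mat2a*, ranked 1916. With 1 group of livers no test of a difference was made, and the values are given as a description.

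**Figure D1:**
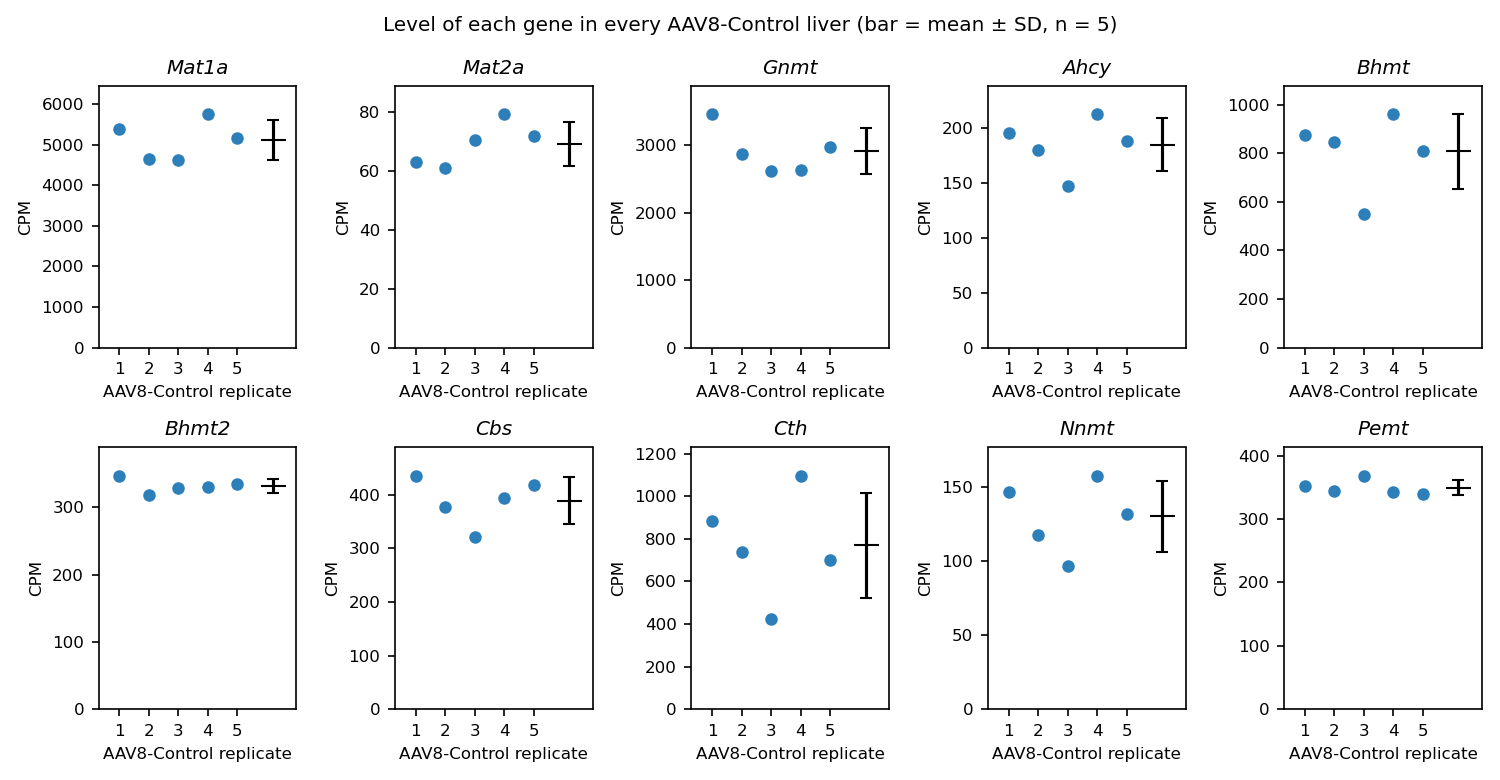
CPM (vertical axes, linear and starting at 0) of each of the 10 genes in the 5 AAV8-Control livers (points, by replicate number), with bars for the mean ± SD. *Bhmt2* and *Pemt* are nearly level across the livers, while *Cth* runs from 425 to 1098 CPM.

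S-adenosylmethionine is made by methionine adenosyltransferase, which has a subunit typical of the adult liver, *Mat1a*, and one typical of other tissues and of dividing cells, *Mat2a*. *Mat1a* (ENSMUSG00000037798, GRCm38 chr14:41105035-41124412, plus strand) had 5390, 4646, 4615, 5753 and 5168 CPM in livers 1 to 5, a mean of 5115 ± 489 CPM (SD, n = 5). *Mat2a* (ENSMUSG00000053907, chr6:72432799-72439558, minus strand) had 63.0, 60.8, 70.6, 79.2 and 71.6 CPM, a mean of 69.1 ± 7.38 CPM (SD, n = 5). Liver 4 was the highest for both genes. Per kilobase of exon the levels were 1475 ± 141 CPM for *Mat1a* and 15.4 ± 1.65 CPM for *Mat2a*, and every liver held far more of the former. The log2 ratio of their CPM was 6.19 ± 0.14 (SD, n = 5), with a lowest value of 6.01 in liver 3 and a highest of 6.40 in liver 1.

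The subunits are paralogs, and the reads were 50 bases long, so the longest stretch that their coding sequences share bears on whether reads could be assigned to the wrong gene. The coding sequences matched at 73.1% of aligned bases, and the longest identical run was 15 bases, at chr14:41114267-41114281 in *Mat1a* and at chr6:72436465-72436479 in *Mat2a*, each within 1 exon. It is printed in the transcript's direction with 12 bases on either side, from the GRCm38 annotation, and capitals mark the identical run.
Mat1a: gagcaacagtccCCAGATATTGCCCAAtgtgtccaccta
Mat2a: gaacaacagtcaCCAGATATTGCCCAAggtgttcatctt
No 50-base window of *Mat1a* occurred in any other annotated transcript. Of *Mat2a* windows, 14.2% did, most of them in *Particl*, a transcript of the opposite strand that overlaps 508 of its exon bases. The authors counted unambiguous reads, and whether the counting used strand is not given in the sources used here. Reads from the overlap of *Mat2a* and *Particl* may therefore not have been counted, and the level of *Mat2a* may be too low.

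The enzymes that use S-adenosylmethionine differed widely in level. *Gnmt* encodes glycine N-methyltransferase, an abundant liver enzyme that takes up excess methyl groups as sarcosine. *Gnmt* (ENSMUSG00000002769, chr17:46725664-46729168, minus strand) had 3466, 2866, 2624, 2641 and 2974 CPM in livers 1 to 5, with a mean of 2914 ± 342 CPM (SD, n = 5). Liver 1 stood highest and livers 3 and 4 lowest. *Nnmt* encodes nicotinamide N-methyltransferase, which passes the methyl group to nicotinamide. *Nnmt* (ENSMUSG00000032271, chr9:48591877-48605153, minus strand) had 147, 117, 96.5, 157 and 131 CPM, with a mean of 130 ± 24.0 CPM (SD, n = 5). Its highest liver, number 4, held 1.63 times its lowest, number 3.

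*Pemt* encodes phosphatidylethanolamine N-methyltransferase, which makes phosphatidylcholine by successive methylations and is found chiefly in liver. *Pemt* (ENSMUSG00000000301, chr11:59970614-60046489, minus strand) had 352, 344, 369, 343 and 339 CPM, with a mean of 349 ± 11.8 CPM (SD, n = 5). It was the one gene of the 10 whose highest value fell in liver 3. The log2 ratio of *Gnmt* to *Pemt* CPM was 3.05 ± 0.18 (SD, n = 5), from 2.83 in liver 3 to 3.30 in liver 1.

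*Ahcy* encodes S-adenosylhomocysteine hydrolase, which clears the product that inhibits methyltransferases. *Ahcy* (ENSMUSG00000027597, chr2:155059310-155074497, minus strand) had 195, 180, 148, 213 and 188 CPM in livers 1 to 5, with a mean of 185 ± 24.1 CPM (SD, n = 5). Liver 3 was lowest and liver 4 highest. Its level is uncertain, since 68.7% of its 50-base windows occur in other annotated transcripts. The near-identical genes *Gm4737*, annotated as protein-coding, and *Gm9826*, a processed pseudogene, share 66.0% and 30.2% of its windows. The authors counted uniquely aligned reads, so reads from stretches that are identical in a copy would not be counted.

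Homocysteine is remethylated apart from folate by the products of *Bhmt* and *Bhmt2*, neighbouring paralogs on the minus strand of chromosome 13. *Bhmt* encodes betaine-homocysteine methyltransferase, whose methyl donor is betaine, and the product of *Bhmt2* uses S-methylmethionine as its methyl donor. *Bhmt* (ENSMUSG00000074768, chr13:93616675-93637961) and *Bhmt2* (ENSMUSG00000042118, chr13:93655720-93674302) lie 17758 bases apart with 0 annotated genes between them. Their coding sequences matched at 74.9% of aligned bases, and the longest identical run was 59 bases, longer than a read, at chr13:93620181-93620239 in *Bhmt* and chr13:93662401-93662459 in *Bhmt2*, each within 1 exon. Capitals mark this run, shown in the transcript's direction with 12 bases on either side.
Bhmt: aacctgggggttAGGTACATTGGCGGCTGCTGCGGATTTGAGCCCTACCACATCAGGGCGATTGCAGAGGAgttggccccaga
Bhmt2: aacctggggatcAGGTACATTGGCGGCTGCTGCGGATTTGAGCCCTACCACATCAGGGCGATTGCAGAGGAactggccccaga
The run gives 10 windows of 50 bases that the pair shares. *Bhmt* also shares 24.1% of its windows with *Gm5096*, annotated as protein-coding, and 13.5% with the processed pseudogene *Bhmt-ps1*, and overlaps 187 exon bases of the antisense gene *Gm15622*. In all, 26.1% of *Bhmt* windows and 6.32% of *Bhmt2* windows occurred in other annotated transcripts.

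*Bhmt* had 874, 845, 551, 961 and 809 CPM in livers 1 to 5, with a mean of 808 ± 154 CPM (SD, n = 5). *Bhmt2* had 347, 318, 329.2, 329.7 and 335 CPM, with a mean of 332 ± 10.7 CPM (SD, n = 5). Liver 3 was far below the others for *Bhmt* and among them for *Bhmt2*. The log2 ratio of *Bhmt* to *Bhmt2* CPM was 1.33, 1.41, 0.74, 1.54 and 1.27 in livers 1 to 5, a mean of 1.26 ± 0.31 (SD, n = 5). Like the other ratios, it was not scaled for gene length. The coefficient of variation, the SD as a percent of the mean, was 19.1% for *Bhmt* and 3.23% for *Bhmt2*. Without liver 3 that of *Bhmt* was 7.45%, and with any 1 liver left out that of *Bhmt2* was 2.19% to 3.70%. With median-of-ratios size factors, an alternative chosen after seeing the data, it was 2.01% for *Bhmt2* and 19.5% for *Bhmt*. For *Bhmt2* the counting of reads alone would give 1.13%.

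The promoters of the pair are shown because the paralogs sit side by side. Their part in the different spread of the pair was not tested. Promoters of 250 bases before to 50 bases after the start were taken from RefSeq (GRCm38.p6), whose table matched 7 of the 10 genes, not *Mat1a*, *Cth* or *Nnmt*. They were searched on both strands for the TATA box (TATAAA), the CCAAT box, the GC box (GGGCGG) and the E-box (CACGTG), and capitals mark the matches, whose letters do not overlap in these sequences. The *Bhmt* promoter lies at chr13:93637709-93638008 and the *Bhmt2* promoter at chr13:93674253-93674552, both printed 5′ to 3′ on the minus strand. In the gene annotation *Bhmt* begins at 93637961 on that strand, so most of its printed stretch lies within the gene. Most of the *Bhmt2* stretch lies before that gene's annotated start at 93674302, so the stretches are not alike in position.
Bhmt promoter: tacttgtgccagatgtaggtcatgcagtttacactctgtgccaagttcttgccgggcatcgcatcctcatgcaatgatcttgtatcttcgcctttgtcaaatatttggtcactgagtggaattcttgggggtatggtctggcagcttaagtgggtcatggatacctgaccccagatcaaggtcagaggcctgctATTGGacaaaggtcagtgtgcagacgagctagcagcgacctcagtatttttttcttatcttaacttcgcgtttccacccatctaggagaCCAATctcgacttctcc
Bhmt2 promoter: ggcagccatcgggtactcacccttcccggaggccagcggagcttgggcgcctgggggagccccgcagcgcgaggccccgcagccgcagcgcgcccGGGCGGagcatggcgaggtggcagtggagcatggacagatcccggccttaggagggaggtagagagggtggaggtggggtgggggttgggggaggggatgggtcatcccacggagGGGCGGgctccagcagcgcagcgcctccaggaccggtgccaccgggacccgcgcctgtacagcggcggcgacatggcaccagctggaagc
The *Bhmt* promoter had a GC content of 48.0% with 8 CpG, near the median of 7 CpG over 32851 promoters, and held a CCAAT box at 2 places, a motif found in 37.4% of promoters. The *Bhmt2* promoter had a GC content of 73.7% with 26 CpG and held a GC box at 2 places, a motif found in 35.7% of promoters. Neither held the TATA box, present in 13.6% of promoters, or the E-box, present in 7.15%. These matches describe the sequences, and binding was not tested.

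Transsulfuration starts with *Cbs*, cystathionine beta-synthase, and ends with *Cth*, cystathionine gamma-lyase, which releases cysteine. *Cbs* (ENSMUSG00000024039, chr17:31608894-31637238, minus strand) had 436, 378, 321, 393 and 418 CPM in livers 1 to 5, with a mean of 389 ± 44.1 CPM (SD, n = 5). *Cth* (ENSMUSG00000028179, chr3:157894248-157925077, minus strand) had 883, 739, 425, 1098 and 701 CPM, with a mean of 769 ± 247 CPM (SD, n = 5). Both genes were lowest in liver 3, and *Cth* was highest in liver 4, at 2.58 times its lowest. The log2 ratio of *Cbs* to *Cth* CPM was -0.92 ± 0.39 (SD, n = 5), from -1.48 in liver 4 to -0.40 in liver 3.

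Ordered by level per kilobase of exon, *Gnmt* was highest at 2416 ± 284 CPM per kb (SD, n = 5), followed by *Mat1a* at 1475 ± 141, and the ranges of these over the livers did not overlap. *Cth* came next at 276 ± 88.7 CPM per kb, below *Mat1a* without overlap, and overlapped *Pemt* at 166 ± 5.59. *Pemt* overlapped *Bhmt* at 140 ± 26.8, which in turn overlapped *Bhmt2* at 135 ± 4.34. *Nnmt*, at 82.4 ± 15.2 CPM per kb, lay below *Bhmt2* without overlap and overlapped *Ahcy* at 65.9 ± 8.58, although it was above *Ahcy* in all 5 livers. *Ahcy* overlapped *Cbs* at 52.0 ± 5.90 and was likewise above it in all 5 livers. *Mat2a* was lowest, at 15.4 ± 1.65 CPM per kb, without overlap. With the length of the transcript of the longest coding sequence in place of all exons, an alternative chosen after seeing the data, the order was the same but some levels and overlaps were not. *Bhmt* went from 140 to 325 CPM per kb, *Pemt* from 166 to 364, *Cth* from 276 to 424, *Nnmt* from 82.4 to 125 and *Mat2a* from 15.4 to 24.6. On that scale *Bhmt* no longer overlapped *Bhmt2*, *Nnmt* no longer overlapped *Ahcy*, and *Nnmt*, at 92.5 to 151 CPM per kb, overlapped *Bhmt2*, at 129 to 141. Both scales count stretches shared with other annotated transcripts. Over all transcripts of a gene, these were 68.7% of the windows of *Ahcy*, 26.1% of those of *Bhmt* and 14.2% of those of *Mat2a*, against 0% for *Nnmt*. Some are shared only with an antisense gene at the same locus, where reads can align uniquely but may be ambiguous. The levels per length of *Ahcy* and *Bhmt* may thus be too low, and their places in this order, also beside *Nnmt*, are uncertain. That of *Mat2a* may be too low as well.

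**Figure D2:**
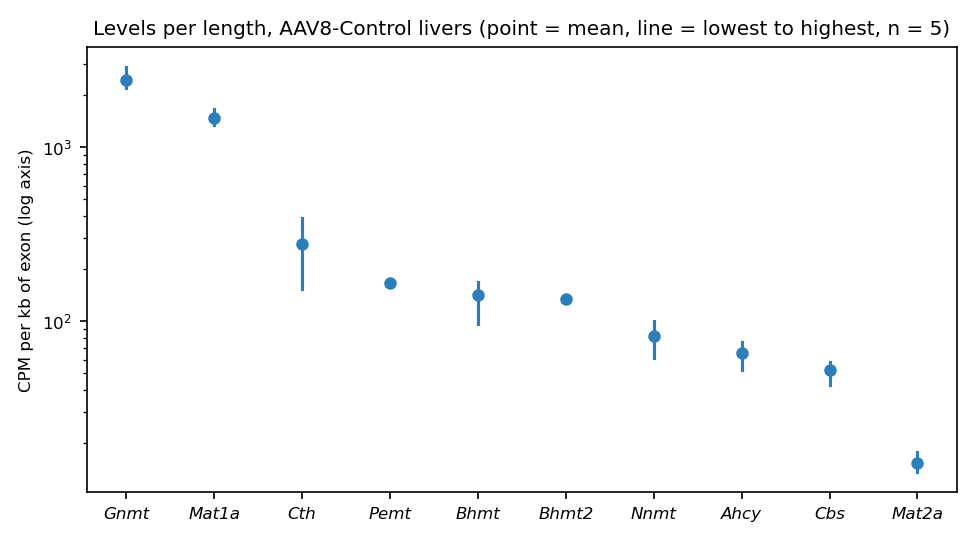
Level per length (CPM per kb of exon, log axis) of each gene in the AAV8-Control livers, with points for means and lines from the lowest to the highest of the 5 livers. The means fall from 2416 for *Gnmt* to 15.4 for *Mat2a*.

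The genes also differed in how much they varied among the livers. The coefficient of variation was 32.2% for *Cth*, 19.1% for *Bhmt* and 18.5% for *Nnmt*, and 9.56% to 13.02% for *Mat1a*, *Mat2a*, *Cbs*, *Gnmt* and *Ahcy*. It was 3.23% for *Bhmt2* and 3.37% for *Pemt*. Over the 2323 genes that averaged 50 CPM or more the median was 8.06%, and 8 of the 10 genes were above it. Without liver 3, with the median taken anew at 7.96%, 5 genes were above it, as *Ahcy*, *Bhmt* and *Cbs* fell below. Of those genes 98.0% varied less than *Cth*, 5.47% less than *Bhmt2* and 6.28% less than *Pemt*. Without liver 3 the values were 20.99% for *Cth*, 12.7% for *Nnmt*, 7.25% for *Ahcy*, 6.36% for *Cbs* and 1.49% for *Pemt*, and without liver 1 that of *Gnmt* was 6.19%.

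Liver 3 was the lowest for 7 of the 10 genes, *Mat1a*, *Gnmt*, *Ahcy*, *Bhmt*, *Cbs*, *Cth* and *Nnmt*. Liver 4 was the highest for 6 and liver 1 for the other 3 besides *Pemt*. The summed level of the 10 genes was 9549 CPM in liver 3 and 12153 CPM in liver 1. Markers of the liver's zones were also lowest in liver 3. The 7 periportal hepatocyte markers summed to 6545, 6497, 5158, 7846 and 7152 CPM in livers 1 to 5, and the 8 pericentral markers to 8829, 7919, 6930, 9785 and 8281 CPM. Both sums were highest in liver 4, whereas the sum of the 10 genes was highest in liver 1. The 10 general hepatocyte markers summed to 101600, 126079, 127278, 135952 and 110686 CPM in livers 1 to 5, lowest in liver 1, next to highest in liver 3 and, like the zone markers, highest in liver 4. The part of these markers in the levels of the methionine cycle genes was not tested. In whole liver, fewer cells that carry a transcript and less of it per cell cannot be told apart.

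**Figure D3:**
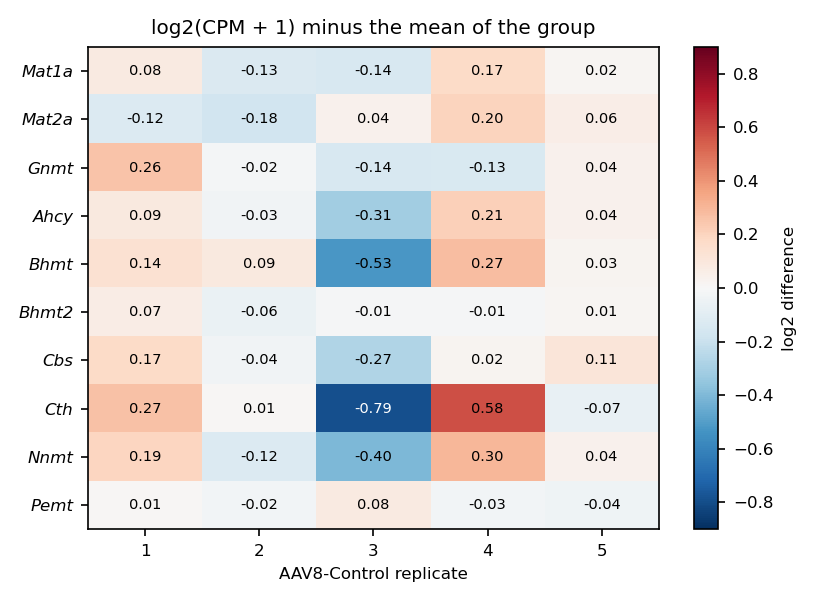
Each gene's log2 difference from its mean over the 5 AAV8-Control livers (colour and printed value, log2(CPM + 1) scale), with a row per gene and a column per liver. Liver 3 is low for most genes, with *Cth* at -0.79, and *Bhmt2* and *Pemt* stay close to 0 throughout.

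The pathways that feed or drain the cycle were taken as 8 lists of 111 genes, of which 103 averaged 1 CPM or more. Their median level was 14.8 CPM per kb, and 49 of them were above *Mat2a* and 4 above *Cth*. Choline, betaine and sarcosine oxidation, with its transporters, had the highest median of the lists, 89.5 CPM per kb over 11 genes. It is led by *Dmgdh* and *Sardh*, which return the methyl groups of dimethylglycine and sarcosine to the folate pool, at 216 ± 27.8 and 216 ± 37.3 CPM per kb (SD, n = 5 each). Cysteine and sulfide disposal followed with 52.5 CPM per kb over 14 genes. Its highest gene was *Cdo1*, cysteine dioxygenase, at 923 ± 54.4 CPM per kb, with *Gclc*, the catalytic subunit of the first enzyme of glutathione synthesis, next at 109 ± 6.93.

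The remaining lists had medians of 3.54 to 12.0 CPM per kb. Among 23 genes of folate metabolism, which include transporters and a folate receptor, *Aldh1l1*, which oxidises 10-formyltetrahydrofolate, was highest at 387 ± 45.9 CPM per kb (SD, n = 5), followed by *Ftcd*, an enzyme of histidine breakdown, at 133 ± 9.28. Of the 20 other methyltransferases, *Mettl7b* and *Inmt* stood at 744 ± 86.1 and 531 ± 25.5 CPM per kb (SD, n = 5 each), beside a median of 7.09. A list of 13 genes covered the CDP-choline branch, which makes phosphatidylcholine without *Pemt*, and the CDP-ethanolamine branch, which makes phosphatidylethanolamine, the substrate of *Pemt*. Its highest genes belong to the latter branch, where *Pcyt2*, which forms CDP-ethanolamine, had 78.6 ± 8.50 and the ethanolamine kinase *Etnk2* 58.2 ± 8.49 CPM per kb. *Pemt* itself stood at 166 CPM per kb. *Adk*, adenosine kinase, which removes the adenosine that *Ahcy* releases, had 73.2 ± 4.68 CPM per kb, and *Ahcyl1* 15.8 ± 0.46. In methylthioadenosine salvage *Adi1* had 83.7 ± 4.65 and *Kyat1* 19.6 ± 1.98 CPM per kb, and in nicotinamide handling *Naprt* had 32.1 ± 2.25 and *Aox3* 30.9 ± 8.16 CPM per kb. *Nnmt*, at 82.4 CPM per kb, was above all 8 genes of the nicotinamide list.

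**Figure D4:**
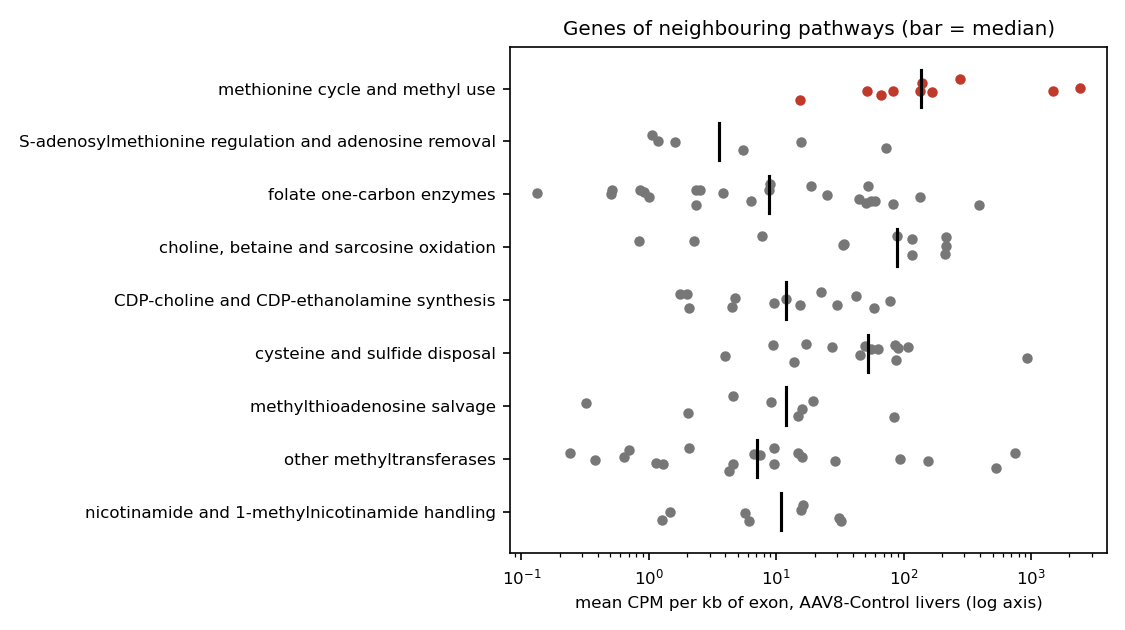
Mean level per length (CPM per kb of exon, log axis, 5 AAV8-Control livers) of the 10 methionine cycle genes (red) and of the 103 genes of the 8 pathway lists (grey), with a point per gene and a bar at each median. The lists' medians lie between 3.54 and 89.5, and *Cdo1* is the highest of their genes at 923.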

How the data were processed

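Total RNA from liver was poly-A selected and sequenced as single reads of 50 bases. The submitters' processing notes name STAR 2.0.4b, featureCounts 1.4.5 of Subread and GRCm38.p2. The authors counted uniquely aligned reads on genes and deposited CPM values, in 15236 lines for 15126 genes, and 110 repeated lines were dropped. Dividing by the CPM of 1 read (0.0282 to 0.0513) gave whole reads for 100% of values within 0.01 of a read. The 5 AAV8-Control libraries are described, and the rest of the series is not reported here.

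With Python 3.11.15, means, SDs and coefficients of variation were taken on CPM, and ratios and differences from the mean on log2(CPM + 1). The ratios were not scaled for length, so their size also reflects the lengths of the genes. With 1 group no groups were compared, and the planned fits across genes were not used. Dixon's criterion at the 95% level was applied to single livers within 30 sets of 5 values. Variation was ranked among genes that averaged 50 CPM or more. The genes and the lists were chosen with earlier results of these data known. Named from each pathway list were the 2 genes of the highest level per kilobase, a rule chosen after seeing the data. Positions, exon lengths and shared 50-base windows came from GENCODE M21 (GRCm38), with lengths for 15123 genes. Alternatives were a pseudocount of 0.1, median-of-ratios size factors, no mitochondrial genes and each library left out. Columns of values that matched no sample numbered 0.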

Additional observations from a re-analysis of the deposited data

Results flagged for a closer look

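In 2 of the 30 sets of 5 values examined, 1 liver lay far from the rest by Dixon's test at the 95% level, which about 5% of sets would meet by chance. *Adk* was 693 CPM in AAV8-Control replicate 4, where the next highest liver had 621 CPM. *Ahcyl1* was 99.95 CPM in AAV8-Control replicate 3, where the next lowest had 106 CPM.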

How the results depend on the processing

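The 4 log2 ratios were also taken under a pseudocount of 0.1 and with each library left out. They were 6.14 to 6.24 for *Mat1a* to *Mat2a*, 1.19 to 1.39 for *Bhmt* to *Bhmt2*, -1.05 to -0.78 for *Cbs* to *Cth* and 2.99 to 3.11 for *Gnmt* to *Pemt*. Leaving out 1 of 5 values cannot move a mean by 1 SD, so these ranges are no test of stability. With median-of-ratios size factors the coefficient of variation was 2.01% for *Bhmt2*, 4.17% for *Pemt*, 8.77% for *Gnmt* and 32.97% for *Cth*, and these alternatives for the coefficient of variation were chosen after seeing the data. Without AAV8-Control replicate 3 it was 7.45% for *Bhmt* and 1.49% for *Pemt*. The number of the 10 genes that varied more than the median gene was 8, and 5 to 8 with each library left out, the 5 without AAV8-Control replicate 3. The cause was not tested. No paired analysis was possible because the values come from 1 group, with no comparison between groups. The alternatives planned for fits across genes were not run for the same reason. Each of the 10 genes had at least 1229 reads in every library.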
